A study of Mus musculus with 8 samples.

Results

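Needling at the acupoints GB34 and LR3 was compared with needling at the hips in mice that had all received MPTP. MPTP is a toxin that kills dopamine neurons and gives mice a form of parkinsonism, and needling the hips, away from the named acupoints, is the study's control for needling itself. The comparison holds 4 of the 8 arrays of the series, chosen by their titles: 2 from acupoint mice and 2 from non-acupoint (hip) mice. It covers the 23410 of 35557 probe sets that carry a gene symbol, of which 15791 were bright enough to test and represent 13524 genes.

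The animals were male C57BL/6 mice, 6 weeks old at the start. Both needled groups received 20 mg/kg MPTP every 24 hr for 4 weeks, and both were needled by hand in 14 sessions 48 hr apart, beginning 2 hr after the first MPTP injection. In acupoint mice the needle went 1 mm deep at LR3 and 3 mm deep at GB34, and in non-acupoint mice it went 3 mm deep on each side of the hips. In either group it was spun at 2 turns per second for 15 seconds. The other 4 arrays come from 2 mice given MPTP alone and 2 control mice given saline. RNA came from thalamic tissue of both sides of the brain, 1 mouse per array, and all values below are the deposited log2 levels, on which a difference of 1 is 2-fold. The labels state that acupoint mice were held by hand and that hip needling otherwise followed the same steps, and they say nothing of restraint in the mice given MPTP alone.

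The thalamus relays sensory and motor signals to the cortex and receives output of the basal ganglia, whose dopamine supply MPTP removes. It borders the third ventricle, where the choroid plexus makes cerebrospinal fluid and ciliated ependymal cells line the wall, and it lies below the habenula and above the hypothalamus and zona incerta. Tissue taken from the thalamus can therefore hold cells of these neighbours. Markers of the labelled tissue were bright: Prkcd, Tcf7l2, Ntng1 and Slc17a6 lay between 9.81 and 11.94 on all 4 needled arrays. Of genes listed for other brain regions, 13 of 16 of cortical projection neurons and 11 of 17 of hippocampal neurons passed the filter on dim probe sets, with median acupoint minus non-acupoint differences of -0.01 and -0.04.

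The array of non-acupoint mouse 1 stood apart, as did that of MPTP mouse 1. These 2 arrays correlated with the other 6 at r of 0.905 to 0.936 over the 15791 tested probe sets, and with each other at 0.982. The other 6 correlated among themselves at 0.981 to 0.995. The differences between the 2 mice of a group had an SD of 0.174 in acupoint mice and 0.542 in non-acupoint mice. Results are therefore also given for the 6 arrays without these 2. There the non-acupoint group and the MPTP group are each mouse 2 alone. The spread is taken from the control and acupoint pairs only, with 2 residual degrees of freedom. Differences within those pairs had an SD of 0.143 and 0.174. The wider spread between the 2 non-acupoint mice does not enter the p-values of that fit.

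The question was which transcripts differ between needling at the acupoints and needling at the hips. Genes of the choroid plexus epithelium were higher in acupoint mice, 21 of 22 without overlap between the groups (14.4% of all genes). Habenular, ependymal and meningeal genes were also higher. Most genes of the hypothalamus were lower. Most of GABA neurons around the thalamus were also lower, with 1 of 12 at an unadjusted p under 0.05 (0.858% of all genes). The dopamine neuron genes Th, Slc6a3 and Slc18a2 were lower, while 4 of the 14 tested genes of their list had the higher mean. No probe set of 15791 (0%) passed an adjusted p of 0.05 in limma with all 8 arrays, and the smallest adjusted p was 0.0522, for Kcnj13 and Folr1. At an unadjusted p under 0.05 there were 299 probe sets (1.89%), 177 higher and 122 lower in acupoint mice, a smaller share than the 5% of the threshold itself. With the 6 arrays, 21 probe sets (0.133%) passed the adjusted threshold and 1414 (8.95%) the unadjusted one.

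That unadjusted count moved when any 1 mouse was left out. Control and MPTP mice do not enter the difference and act only through the estimate of spread that all groups share. Leaving out either control mouse gave 167, and leaving out either MPTP mouse 629. Leaving out acupoint mouse 1 gave 142 and acupoint mouse 2 gave 109, and the fit gave 183 when non-acupoint mouse 1 was dropped and 1998 when non-acupoint mouse 2 was. The adjusted count stayed at 0 or 1 in these fits. The single call was Kcnj13 without either MPTP mouse (limma adjusted p 0.029) and Ttr without non-acupoint mouse 2 (limma adjusted p 0.0152).

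Non-overlap between the groups was common. Both acupoint mice lay above both non-acupoint mice for 1951 genes (14.4%) and below them for 2452 (18.1%), and 51.8% of all tested genes had the higher mean in acupoint mice. A separation of at least 2-fold between the nearest mice was rarer. It was reached by 23 genes (0.17%) that were higher in acupoint mice and by 0 genes (0%) that were lower. Of these 23, 17 were on the choroid plexus list, 2 on the meningeal list and 1 on the habenula list. The other 3 were Ecrg4, Oca2 and Drc7. Some of the 23, among them Kcnj13, Gpr151, Oca2 and Drc7, had both non-acupoint mice under 5.63, the mean below which probe sets were treated as dim. They passed the filter on dim probe sets through the other groups, and how far their separation reflects expression was not tested.

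**Figure D1:**
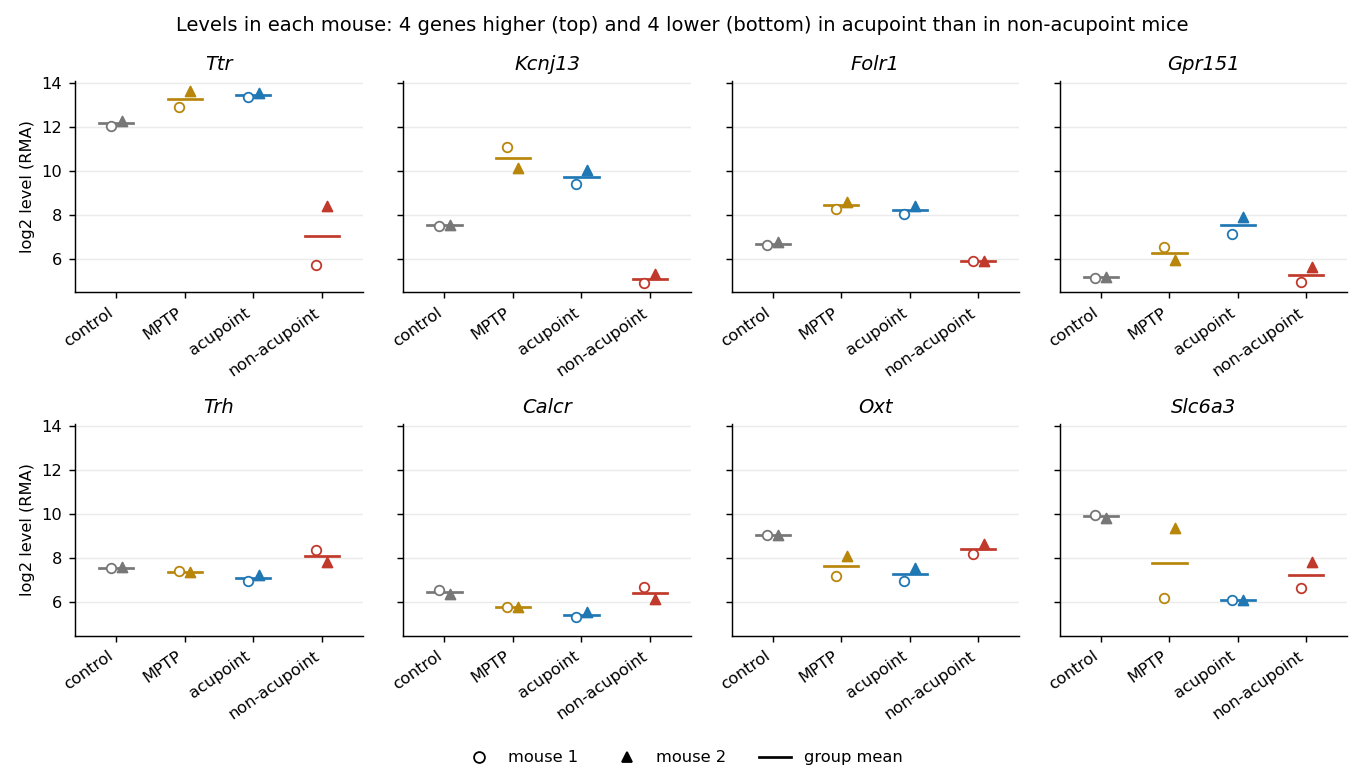
Log2 level of 8 genes (vertical axes) in each mouse of the 4 groups, with circles for mouse 1, triangles for mouse 2 and a bar for the group mean. Ttr, Kcnj13, Folr1 and Gpr151 were higher and Trh, Calcr, Oxt and Slc6a3 lower in both acupoint mice than in both non-acupoint mice.

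The choroid plexus list had the largest median difference of the 41 lists described. Ttr, which encodes transthyretin, the thyroid hormone carrier that choroid plexus secretes, stood at 13.36 and 13.53 in acupoint mice and at 5.72 and 8.39 in non-acupoint mice. It stood at 12.05 and 12.27 in control mice and at 12.91 and 13.65 in MPTP mice, so that the non-acupoint mice were the low group and differed between themselves. The acupoint minus non-acupoint difference was 6.39 ± 0.78 (log2, SE, 2 mice a group) in limma, with an adjusted p of 0.188 on 8 arrays. Against non-acupoint mouse 2 alone the difference was 5.06. No fold is given, since non-acupoint mouse 1, whose array stood apart, lay near 5.63, the mean below which probe sets were treated as dim.

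Kcnj13, an inwardly rectifying potassium channel of transporting epithelia, stood at 9.40 and 10.02 in acupoint mice against 4.91 and 5.30 in non-acupoint mice. Control mice had 7.50 and 7.56, and MPTP mice 11.07 and 10.13. The difference between the needled groups was 4.60 ± 0.35. Both non-acupoint mice lay under 5.63, the mean below which probe sets were treated as dim, and Kcnj13 passed that filter through the other groups. Both non-acupoint mice also lay under it for Aqp1, Calml4, Cldn1, Gpr151, Dynlrb2, Oca2 and Drc7, and both acupoint mice did for Asb4, Calcr, Chrna6, Gabre and Sim1. How far the dim side of these differences reflects expression was not tested, and no fold is given for them. Folr1, the folate receptor that carries folate into cerebrospinal fluid, stood at 8.04 and 8.40 in acupoint mice against 5.91 and 5.92 in non-acupoint mice, a difference of 2.30 ± 0.18 (4.93-fold). Control mice lay between, at 6.61 and 6.77. For both genes the groups were well separated and the non-acupoint pair was the lowest of the 4 groups.

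The group means of the other choroid plexus genes named here, apart from Cab39l and Calml4, ran from MPTP as the highest through acupoint and control to non-acupoint. Kl, which encodes the anti-ageing hormone klotho, was higher by 3.14 ± 0.39, and Clic6, a chloride channel protein, by 2.89 ± 0.31. Lbp, which binds bacterial lipopolysaccharide, stood at 8.34 and 8.94 against 6.16 and 6.11, and Sostdc1, a secreted inhibitor of BMP and Wnt signals, at 7.81 and 8.48 against 5.69 and 5.66. In both genes the nearest mice of the needled groups were more than 2-fold apart. Genes of ion and water transport were Car12, a carbonic anhydrase (2.16 ± 0.26), Slc4a5, a bicarbonate cotransporter (1.78 ± 0.26), and Aqp1, a water channel (1.57 ± 0.25). Slc2a12, a glucose transporter, was higher by 1.33 ± 0.28. Genes of structure and identity had smaller differences: Cldn1, a tight junction protein (1.12 ± 0.13), Col8a1, a collagen chain (1.25 ± 0.16), and Otx2, a transcription factor needed to form choroid plexus (1.23 ± 0.22).

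Of 25 listed choroid plexus genes, 22 were tested. Their median difference was 1.82, against 0.01 over all tested genes, and 21 had an unadjusted p under 0.05 in the higher direction, against 160 of 13524 genes (1.18%). The exception was Cab39l, an adaptor of a protein kinase, at 8.39 and 8.79 in acupoint mice and 9.26 and 7.92 in non-acupoint mice, where the groups overlapped. All 22 had an unadjusted p under 0.05 with the 6 arrays, against 643 genes (4.75%), and the median was then 1.93. Leaving out any 1 of the 8 mice left the count at 21. The list was chosen with earlier results of these data known, so these counts describe it and do not test it. Kcnj13, Aqp1, Calml4 and Cldn1 passed the filter on dim probe sets through groups other than the non-acupoint one. The mean of the list, set to 0 over the 8 arrays, was 1.22 and 1.09 in MPTP mice, 0.51 and 1.00 in acupoint mice, -0.61 and -0.54 in control mice and -1.29 and -1.37 in non-acupoint mice. In these bulk samples, fewer cells of a type and less RNA per cell cannot be told apart.

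Outside the list, Ecrg4, which encodes a secreted peptide that choroid plexus makes, stood at 7.88 and 8.38 in acupoint mice against 5.93 and 5.79 in non-acupoint mice (2.27 ± 0.29). Oca2, a melanosome transporter, was higher by 1.39 ± 0.26, and Drc7, a component of motile cilia, by 1.53 ± 0.26. Calml4, a calmodulin-like protein that is on the list, was higher by 2.05 ± 0.20. None of these passed the adjusted threshold on 8 arrays. With the 6 arrays the 17 genes past the limma threshold included 10 of the choroid plexus list, together with Ecrg4, Oca2, Igf2, Slc13a4, Chrnb4 and Igfbp2 among the 16 that were higher. Igfbp2, which binds insulin-like growth factors, was higher by 1.02 there, with an adjusted p of 0.046. The 1 gene that was lower was Slc6a3.

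**Figure D2:**
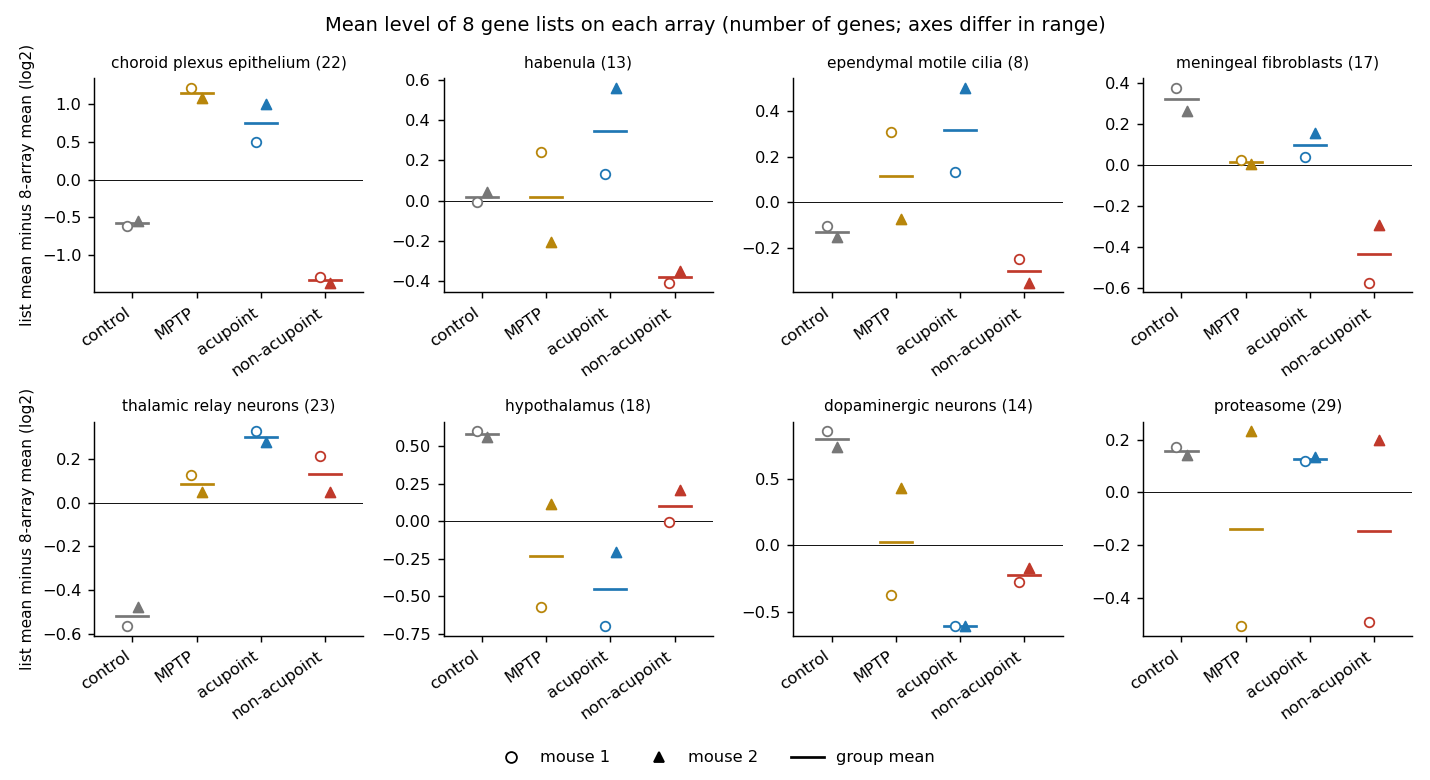
Mean level of 8 gene lists in each mouse, with each gene set to a mean of 0 over the 8 arrays (log2; the axes differ in range). Circles are mouse 1, triangles mouse 2 and bars the group mean. The choroid plexus, habenula, ependymal and meningeal lists were higher in both acupoint mice than in both non-acupoint mice, the hypothalamus and dopaminergic lists were lower, and the proteasome list was low in MPTP mouse 1 and non-acupoint mouse 1.

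Habenular genes were higher in acupoint mice. The habenula is a small nucleus on top of the thalamus that inhibits dopamine and serotonin neurons and carries nicotinic receptors of an uncommon make-up. Gpr151, an orphan receptor that marks habenular neurons, stood at 7.14 and 7.91 in acupoint mice and 4.93 and 5.62 in non-acupoint mice (2.25 ± 0.35). It stood at 5.15 and 5.19 in control mice and at 6.56 and 5.95 in MPTP mice, so the acupoint mice were the highest group. The nicotinic subunit genes Chrnb4 and Chrna3, whose products assemble into habenular receptors, were higher by 1.14 ± 0.32 and 1.09 ± 0.55. Chrnb4 stood at 6.63 and 6.89 against 5.78 and 5.46, and Chrna3 at 6.68 and 7.41 against 6.08 and 5.83. Neither subunit overlapped between the needled groups, but in MPTP mice Chrna3 ranged from 5.73 to 7.50. Nwd2, which the habenula also expresses, was higher by 1.20 ± 0.34.

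Of 13 tested habenular genes, 12 had the higher mean in acupoint mice, 10 did so without overlap (14.4% of all genes), and 6 had an unadjusted p under 0.05 (1.18% of all genes). Their median was 0.53, and 0.73 with the 6 arrays. The exception was Tac1, the substance P precursor, whose groups overlapped (-0.36 ± 0.61). The count of 6 was 2 without acupoint mouse 2 and 3 without non-acupoint mouse 2, and the median was 0.86 without acupoint mouse 1. The list's mean, set to 0 over the 8 arrays, was 0.13 and 0.56 in acupoint mice and -0.41 and -0.35 in non-acupoint mice. It was -0.01 and 0.04 in control mice and 0.24 and -0.20 in MPTP mice. The non-acupoint mice were thus the lowest, and acupoint mouse 1 lay below MPTP mouse 1. Acupoint mouse 2 was high in both habenular and choroid plexus genes. The part of the choroid plexus difference in that of the habenula was not tested.

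Genes of motile cilia, which ependymal cells use to move cerebrospinal fluid, were mostly too dim to test: 11 of 21 fell under the filter and 8 were tested. All 8 had the higher mean in acupoint mice, 5 without overlap (14.4% of all genes), and the median was 0.58. Tmem212 stood at 6.51 and 7.02 against 5.56 and 5.66 (1.15 ± 0.21), and Dynlrb2, a dynein light chain, at 6.07 and 6.53 against 5.49 and 5.12 (1.00 ± 0.37). Both were without overlap, and they were the 2 genes at an unadjusted p under 0.05 (1.18% of all genes). Rsph1, a radial spoke protein (0.67 ± 0.29), and Ak7, an adenylate kinase of cilia (0.87 ± 0.40), did not reach it. The count of 2 was 1 without either control mouse or acupoint mouse 2, 4 without acupoint mouse 1 and 5 without either MPTP mouse.

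All 17 tested genes of meningeal fibroblasts had the higher mean in acupoint mice, 13 without overlap (14.4% of all genes), with a median of 0.39. Meningeal fibroblasts form the membranes around the brain and secrete growth factors and matrix. Igf2, a growth factor that choroid plexus also secretes, stood at 8.45 and 8.60 in acupoint mice and 7.44 and 7.17 in non-acupoint mice (1.22 ± 0.15), with control mice at 8.47 and 8.40. Slc13a4, a sulphate transporter, stood at 7.21 and 7.58 against 5.89 and 5.82 (1.54 ± 0.31). For both, control mice matched acupoint mice more closely than non-acupoint mice. Slc6a20a, a proline transporter, was higher by 0.81 ± 0.18, and Bmp6, a growth factor of the BMP family, by 0.68 ± 0.17.

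The meningeal difference was smaller against the non-acupoint mouse whose array did not stand apart. The median was 0.66 against mouse 1 and 0.28 against mouse 2, and 7 genes had an unadjusted p under 0.05 both with 8 arrays (1.18% of all genes) and with 6 (4.75%). That count was 4 without acupoint mouse 2. Of the membrane transporters that mark these cells, Slc6a13 differed by 0.33 ± 0.19 and Slc22a6 by 0.06 ± 0.13, and both overlapped between the groups. Of 17 tested collagen chains 14 had the higher mean in acupoint mice, 7 without overlap (14.4% of all genes), with a median of 0.11. Col8a2 (0.61 ± 0.18) and Col1a2 (0.36 ± 0.14) had an unadjusted p under 0.05 (1.18% of all genes). That count was 1 without either control mouse or acupoint mouse 1, 0 when acupoint mouse 2 or non-acupoint mouse 1 was dropped, and 4 without either MPTP mouse. The collagen median was 0.25 without acupoint mouse 2 and 0.18 against non-acupoint mouse 1 alone.

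Relay neuron genes of the thalamus had small differences, from -0.13 to 0.47, and were more often higher than lower in acupoint mice. Prkcd, a protein kinase C that marks relay neurons, stood at 11.94 and 11.84 in acupoint mice and 11.67 and 11.74 in non-acupoint mice, a difference of 0.18 ± 0.17 with a 95% interval of -0.23 to 0.60. Tcf7l2, a transcription factor of the same neurons, stood at 10.25 and 10.12 against 10.53 and 9.81, where non-acupoint mice spanned the acupoint mice. Its difference was 0.01 ± 0.26, and its sign turned under other scaling of the arrays, to -0.019 with quantile normalization and -0.011 with cyclic loess. Control mice stood lower, at 10.74 and 10.90 for Prkcd and at 9.39 and 9.47 for Tcf7l2.

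Of 23 tested relay genes, 19 had the higher mean in acupoint mice and 10 did so without overlap (14.4% of all genes), with a median of 0.16. Adcy1, an adenylyl cyclase (0.47 ± 0.15), Cacna1g, the T-type calcium channel behind thalamic bursts (0.43 ± 0.16), and Gbx2, a thalamic transcription factor (0.36 ± 0.15), had an unadjusted p under 0.05 (1.18% of all genes). The direction depended on the mouse. All 23 were higher than non-acupoint mouse 2, with a median of 0.26, and 12 of 23 were higher than non-acupoint mouse 1, with a median of 0.06. The count of 3 was 0 when acupoint mouse 1, acupoint mouse 2 or non-acupoint mouse 1 was left out, and it was 1 without either control mouse and 5 without either MPTP mouse. The median was 0.10 without acupoint mouse 1.

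**Figure D3:**
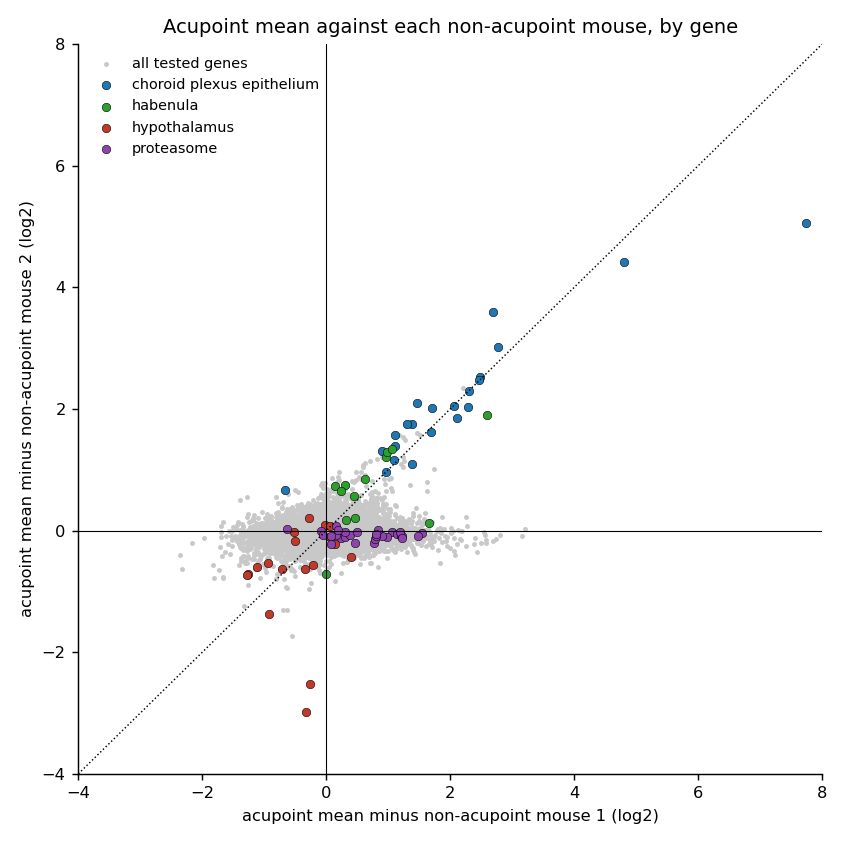
Each gene's acupoint mean minus non-acupoint mouse 1 (horizontal axis, log2) against the same minus non-acupoint mouse 2 (vertical axis, log2). Grey points are all tested genes, coloured points are 4 lists, and the dotted line marks equal differences. Choroid plexus and most habenular genes were displaced along both axes, and proteasome genes mainly along the horizontal one, the axis of non-acupoint mouse 1.

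Hypothalamic genes were lower in acupoint mice. The hypothalamus makes hormones and neuropeptides that control feeding, arousal and water balance. Trh, which encodes thyrotropin-releasing hormone, stood at 6.96 and 7.21 in acupoint mice and 8.36 and 7.82 in non-acupoint mice, a difference of -1.01 ± 0.20 (2.01-fold lower). It stood at 7.53 and 7.60 in control mice and at 7.39 and 7.37 in MPTP mice, between the needled groups. Oxt, which encodes oxytocin, stood at 6.98 and 7.55 against 8.19 and 8.65 (-1.15 ± 0.34). Control mice had 9.07 and 9.05, above both needled groups. Calcr, the calcitonin receptor, stood at 5.32 and 5.53 against 6.70 and 6.14 (-0.99 ± 0.21), and Sim1, a transcription factor of oxytocin neurons, at 5.27 and 5.20 against 6.36 and 5.84 (-0.86 ± 0.24). No mouse of 1 group reached the level of the other in these genes.

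Of 18 tested hypothalamic genes, 16 had the lower mean in acupoint mice and 9 did so without overlap (18.1% of all genes). The median was -0.44, and -0.55 with the 6 arrays. There were 6 with an unadjusted p under 0.05 (0.858% of all genes), and 10 with the 6 arrays (4.55% of all genes). The count of 6 was 3 without acupoint mouse 1 or non-acupoint mouse 1.

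Peptides of the lateral hypothalamus varied widely from mouse to mouse. Hcrt, the orexin precursor, stood at 5.55 and 8.41 in acupoint mice and 7.31 and 9.95 in non-acupoint mice, and Pmch, the precursor of melanin-concentrating hormone, at 6.61 and 9.58 against 8.36 and 10.62. Mouse 1 was the lower of the pair in both needled groups, the groups overlapped, and the differences of -1.66 ± 1.30 and -1.39 ± 1.25 were near their errors. The Pmch difference was 0.10 without acupoint mouse 1.

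Several of the lowest p-values in the lower direction belonged to genes that were on no regional list. Gabrq, a GABA-A receptor subunit of hypothalamic and brainstem neurons, stood at 5.93 and 6.27 in acupoint mice and 7.39 and 6.85 in non-acupoint mice (-1.02 ± 0.22). Gpr101, an orphan receptor of the hypothalamus, differed by -0.79 ± 0.18, and Asb4, a ubiquitin ligase subunit of hypothalamic feeding neurons, stood at 5.24 and 5.44 against 6.31 and 6.02. The imprinted genes Dlk1 and Zim1 were also lower: Dlk1, a Notch-like membrane protein, at 7.31 and 7.30 against 8.57 and 8.06 (-1.01 ± 0.25), and Zim1, a zinc finger gene, at 5.94 and 6.40 against 7.83 and 6.93 (-1.21 ± 0.31). For Gabrq, Gpr101, Dlk1 and Zim1 the acupoint mice were also under the control and MPTP mice.

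Signalling and metabolic genes completed the group. Nxph4, a neurexin ligand, differed by -0.93 ± 0.22, Ndnf, a neurotrophic factor secreted by neurons, by -0.74 ± 0.18, and Glra3, a glycine receptor subunit, by -0.62 ± 0.16. Ngb, neuroglobin, an oxygen-binding protein of neurons, stood at 7.03 and 7.12 against 8.15 and 7.56 (-0.78 ± 0.20). Ahi1, a protein of primary cilia that hypothalamic neurons express strongly, differed by -0.60 ± 0.15, Rimklb, an enzyme that makes N-acetylaspartylglutamate, by -0.55 ± 0.15, and Fstl5, a follistatin-like protein, by -0.50 ± 0.13. Each had the groups apart, and limma's adjusted p was 0.893 for each.

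GABA neurons of the reticular nucleus and zona incerta, which inhibit relay neurons, were lower in 10 of 12 tested genes, 5 without overlap (18.1% of all genes), with a median of -0.28. The median was -0.13 when acupoint mouse 1 was left out and -0.41 when acupoint mouse 2 was. Pax6, a transcription factor of the zona incerta, stood at 6.93 and 6.79 against 7.69 and 7.21 (-0.59 ± 0.24) and was the 1 gene with an unadjusted p under 0.05 (0.858% of all genes). Dlx1, which sets GABA neuron identity, differed by -0.62 ± 0.26, Sst, somatostatin, by -0.60 ± 0.30, and Lhx1 by -0.36 ± 0.17. Gad1, which makes GABA, stood at 10.80 and 10.90 against 10.54 and 11.04, with overlap. The count of 1 was 0 without either control mouse, acupoint mouse 1 or non-acupoint mouse 1, 3 without either MPTP mouse or non-acupoint mouse 2, and 5 with the 6 arrays (4.55%). The Pax6 call was also lost without acupoint mouse 2, where the count was 1 from another gene.

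The dopamine neuron genes Th, Slc6a3 and Slc18a2 were below control in both needled groups and lowest in acupoint mice. Th, the first enzyme on the path to dopamine, stood at 5.97 and 6.22 in acupoint mice and 6.72 and 7.40 in non-acupoint mice, against 9.34 and 9.10 in control mice and 6.15 and 8.75 in MPTP mice. Slc6a3, the dopamine transporter through which the MPTP metabolite enters neurons, stood at 6.10 and 6.09 against 6.64 and 7.83, with control mice at 9.96 and 9.83 and MPTP mice at 6.20 and 9.39. Slc18a2, which loads dopamine into vesicles, stood at 6.06 and 5.34 against 7.03 and 6.94. In all 3 the acupoint mice lay below the non-acupoint mice without overlap, and the MPTP mice differed widely from each other.

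The differences of -0.97 ± 0.76 for Th, -1.15 ± 0.95 for Slc6a3 and -1.29 ± 0.58 for Slc18a2 did not pass the threshold, with a limma adjusted p of 0.893 for each. With the 6 arrays, which leave out the lower MPTP mouse and the lower non-acupoint mouse, Slc6a3 differed by -1.74 and Th by -1.31. Both values compare the acupoint mice with 1 non-acupoint mouse. Ddc, which makes dopamine from L-DOPA, overlapped (-0.33 ± 0.41), and Chrna6, a nicotinic subunit of dopamine neurons, differed by -0.80 ± 0.49. Of 14 tested genes of the list, 10 had the lower mean, 6 without overlap (18.1% of all genes), with a median of -0.29. Ntsr1, the neurotensin receptor, was the 1 gene with an unadjusted p under 0.05 (-0.62 ± 0.17; 0.858% of all genes). That count was 5 without either MPTP mouse, 2 when non-acupoint mouse 2 was dropped and 0 when acupoint mouse 2 was. The hypothalamus list, another ventral neighbour of the thalamus, was lower in the same mice, with means of -0.70 and -0.21 in acupoint mice and -0.01 and 0.21 in non-acupoint mice, and the part of tissue make-up in the dopamine neuron values was not tested.

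**Figure D4:**
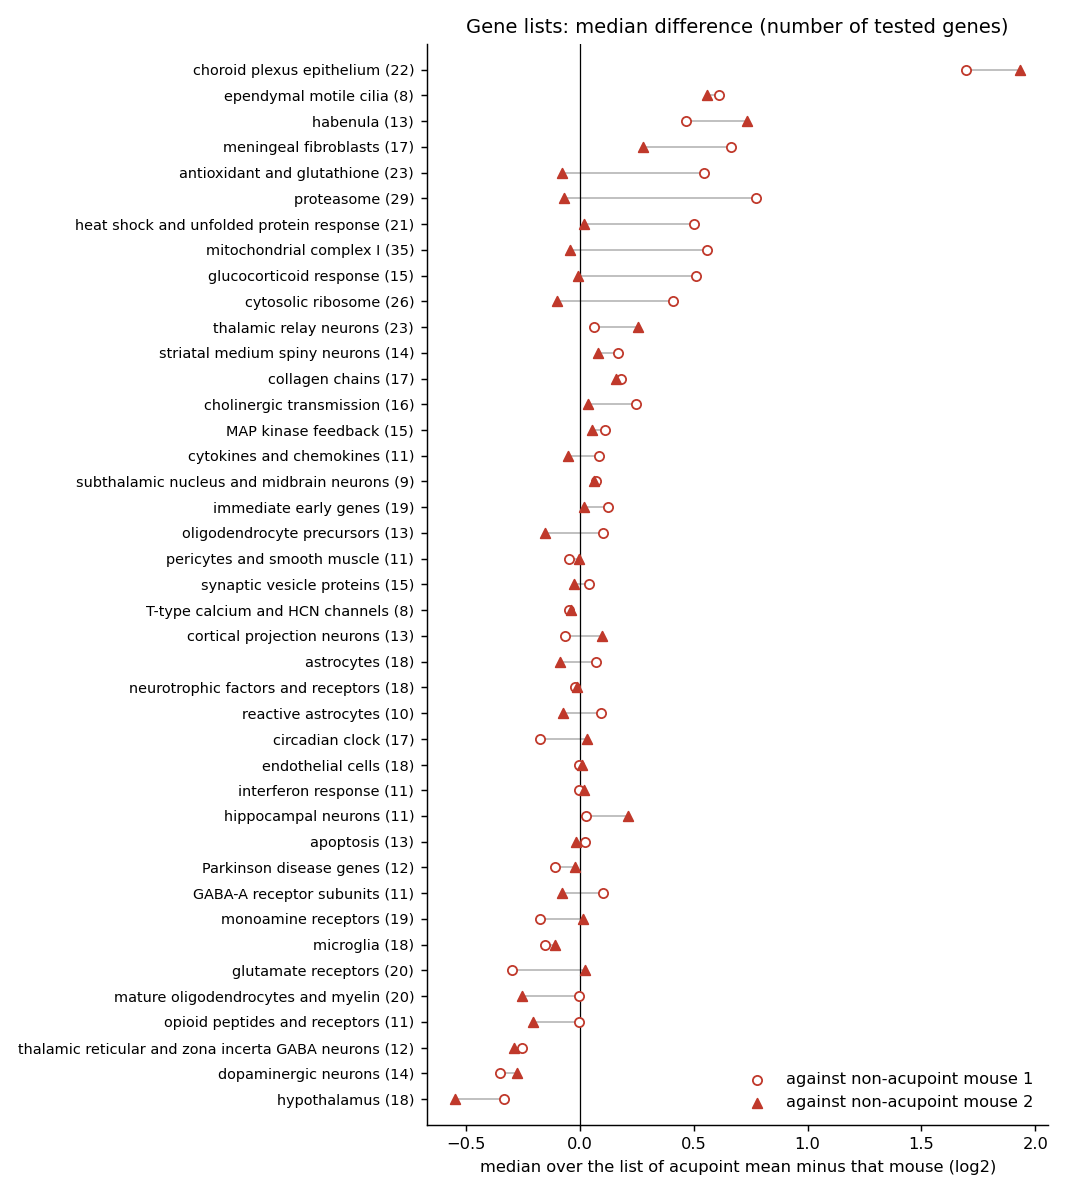
Median over each of 41 gene lists of the acupoint mean minus non-acupoint mouse 1 (open circles) or minus non-acupoint mouse 2 (filled triangles), in log2, with the number of tested genes in brackets. The choroid plexus list was high against either mouse, the hypothalamus list was low against either, and the proteasome, antioxidant and complex I lists were high against mouse 1 only.

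Receptors of other transmitters gave small differences in either direction. The serotonin receptors Htr2a and Htr1a were lower in acupoint mice, Htr2a at 6.70 and 6.89 against 7.46 and 7.34 (-0.60 ± 0.22) and Htr1a at 5.65 and 5.84 against 6.13 and 6.23 (-0.44 ± 0.16). Htr2c, which choroid plexus expresses strongly as well as neurons, was higher, at 10.26 and 10.42 against 9.92 and 9.98 (0.39 ± 0.15). These 3 were the monoamine receptors with an unadjusted p under 0.05 of 19 tested (1.18% of all genes in the higher and 0.858% in the lower direction), and none of the 3 overlapped. All 3 calls were lost when acupoint mouse 1, acupoint mouse 2 or non-acupoint mouse 1 was left out, and 1 was left without either control mouse. The choroid plexus list was higher in the same 2 mice as Htr2c, and its part in the Htr2c value was not tested.

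Of 11 GABA-A subunits tested, 3 had an unadjusted p under 0.05: Gabrq, Gabre (-0.55 ± 0.17) and, in the higher direction, Gabra4 (0.42 ± 0.15), against 0.858% and 1.18% of all genes. The Gabra4 call was lost without either control mouse, and 1 lower call was left when acupoint mouse 1, acupoint mouse 2 or non-acupoint mouse 1 was dropped. When non-acupoint mouse 2 was dropped there were 4 higher and 3 lower calls. Gabrd, a subunit of extrasynaptic receptors on relay neurons, stood at 9.09 and 9.09 against 7.59 and 8.84, with non-acupoint mouse 1 apart. Among 20 glutamate receptor genes Grm2, a presynaptic receptor that lowers glutamate release, was the 1 with an unadjusted p under 0.05 (0.45 ± 0.18; 1.18% of all genes), a call lost without either control mouse or any of the 4 needled mice. The muscarinic receptor gene Chrm5 was lower (-0.77 ± 0.24) at an unadjusted p under 0.05, a call lost when acupoint mouse 1 or non-acupoint mouse 1 was dropped. The opioid peptide gene Penk, preproenkephalin, stood at 8.52 and 10.74 in acupoint mice and 10.90 and 10.08 in non-acupoint mice, with wide overlap. Of 11 tested genes of opioid peptides, opioid receptors and related signals, 0 had an unadjusted p under 0.05 in limma. Of these 11, 8 had the lower mean in acupoint mice, with a median of -0.21, which was 0.15 without acupoint mouse 1.

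Genes of neuronal activity and trophic support had medians near that of all genes, 0.04 for 19 immediate early genes and -0.02 for 18 trophic genes. The groups did not overlap for 8 of the first (6 higher, 2 lower) and 7 of the second (3 higher, 4 lower), against 32.6% of all genes in either direction. Fos, an immediate early gene switched on by neuronal firing, stood at 6.79 and 6.98 in acupoint mice and 6.56 and 7.21 in non-acupoint mice. Its difference was 0.00 (-0.003, with a 95% interval of -0.55 to 0.55). The sign turned to 0.03 with quantile normalization and 0.004 with cyclic loess. Of 19 immediate early genes, Nptx2, a synaptic pentraxin, was the 1 with an unadjusted p under 0.05 (1.18% of all genes in that direction), at 8.17 and 8.15 against 7.65 and 7.66 (0.51 ± 0.15). That count was 0 without either acupoint mouse and 3 when non-acupoint mouse 2 was left out. Bdnf, a growth factor for neurons, differed by 0.15 ± 0.29 with an interval of -0.54 to 0.83, and Gdnf, a factor that sustains dopamine neurons, by 0.39 ± 0.20 with an interval of -0.09 to 0.86. The GDNF-family receptor gene Gfra2 stood at 7.76 and 7.56 against 8.03 and 7.98, and of 18 trophic genes 0 had an unadjusted p under 0.05 in limma.

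**Figure D5:**
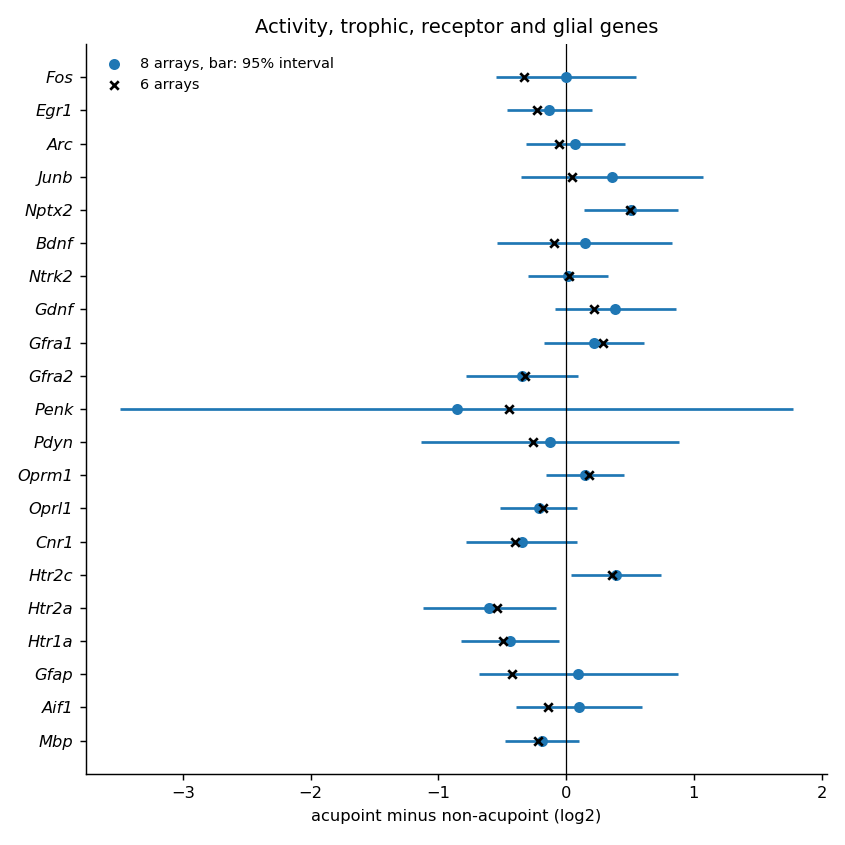
Acupoint minus non-acupoint difference (log2) of 21 genes of activity, trophic support, receptors and glia, with the 95% interval of the fit to 8 arrays (dots and bars) and the difference with the 6 arrays (crosses). Nptx2 and Htr2c lay above 0 and Htr2a and Htr1a below 0 with their intervals, and the intervals of Fos, Bdnf, Gfap, Aif1 and Mbp spanned 0.

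Glial lists had small medians, with myelin and microglial genes more often lower than higher in acupoint mice. Gfap, the intermediate filament of astrocytes, stood at 8.31 and 8.52 against 7.80 and 8.84, and Aif1, a microglial protein, at 5.93 and 5.85 against 5.54 and 6.04, so that the 2 non-acupoint mice enclosed the acupoint mice in both. With the 6 arrays the sign of both turned, to -0.42 for Gfap and -0.15 for Aif1. Mbp, a myelin protein, stood at 11.47 and 11.53 against 11.65 and 11.72 (-0.19 ± 0.12). Of 20 tested myelin genes, 10 were lower without overlap (18.1% of all genes) and 2, Opalin and Fa2h, had an unadjusted p under 0.05 (0.858% of all genes), with a median of -0.16. That count was 10 with the 6 arrays (4.55% of all genes), 4 without either MPTP mouse, 1 in the lower direction without acupoint mouse 1 or non-acupoint mouse 2, and 0 without either control mouse, acupoint mouse 2 or non-acupoint mouse 1. Myelin genes were lower in 20 of 20 against non-acupoint mouse 2 (median -0.26) and in 10 of 20 against mouse 1 (median -0.01). Microglial genes had the lower mean in 12 of 18, 7 without overlap (18.1% of all genes), with a median of -0.13. None had an unadjusted p under 0.05 in limma. The acupoint mean was higher in 7 of 18 against non-acupoint mouse 1 and in 1 of 18 against mouse 2.

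Housekeeping lists followed the array that stood apart. The median of 29 proteasome genes was 0.77 against non-acupoint mouse 1 and -0.07 against mouse 2, and that of 35 complex I genes was 0.56 and -0.04. Ndufb6, a complex I subunit, stood at 10.83 and 10.87 in acupoint mice, 10.83 in non-acupoint mouse 2 and 8.96 in non-acupoint mouse 1. It stood at 9.21 in MPTP mouse 1 and between 10.72 and 10.98 in the remaining mice, so its low values were those of the 2 arrays that stood apart. Ribosomal, heat shock, antioxidant and glucocorticoid response lists had medians of 0.41, 0.50, 0.55 and 0.51 against mouse 1, and of -0.10, 0.02, -0.08 and -0.01 against mouse 2.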

How the data were processed

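Per the submitters' processing notes, arrays went through Affymetrix Expression Console and RMA, and the authors deposited 1 log2 level per probe set and array. RMA corrects background and draws the arrays towards 1 distribution, so a shift in total RNA is not seen. Array medians lay between 6.18 and 6.29. The sources used here give no versions or library files.

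Names came from the platform annotation: 21789 probe sets had 1 symbol, 1621 several (tested, not named) and 12147 none. The dimmest 40% (mean log2 under 5.63) were left out. R 4.3.3 and limma 3.58.1 fitted 4 group means to 8 arrays, with 4 residual and 2.53 prior degrees of freedom and Benjamini-Hochberg adjustment over 15791 probe sets. Errors are limma's SE. The number of arrays limits the precision, and an exact permutation test of 2 against 2 mice cannot go below a two-sided p of 0.333. The fit was tested on simulated data. The simulated spread of a probe set was alike on all arrays, so that check did not cover arrays that stand apart.

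Each gene was read from its brightest probe set. Members and the 43 gene lists (642 of 800 symbols tested) were chosen with earlier results of these data known. Genes were named where the needled groups did not overlap: the 15 smallest p-values in each direction, up to 10 in each direction past the threshold with 6 arrays, up to 4 per list, and a set of fixed markers. Cab39l, Hcrt, Pmch, Oca2, Drc7, Igfbp2, Tac1, Gad1, Gabra4, Penk, Slc6a13, Slc22a6, Ntng1 and Slc17a6 were added, most of them after their values were seen. Alternatives covered scaling, filter, variance model, arrays, mouse number as a block and probe sets. Equal mouse numbers did not pair the needled mice (correlation of deviations -0.024).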

Additional observations from a re-analysis of the deposited data

How the results depend on the processing

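The limits are 2 mice a group and the array of non-acupoint mouse 1, which stood apart. The count past the adjusted threshold in limma was 0 with quantile normalization, cyclic loess, the dimmest 60% left out, only the 4 needled arrays, and the mouse number as a replicate block. It was 2 with no filter and 2 with an intensity trend (Kcnj13 and Folr1 both times), 3 with 1 probe set per gene (with Lbp), 21 with the 6 arrays, and 0 to 1 leaving out 1 mouse. The unadjusted count of 299 was 502 with no filter, 155 with the dimmest 60% left out, 1414 with the 6 arrays, 109 to 1998 leaving out 1 mouse, and between 276 and 378 otherwise, 378 being the fit with the replicate block. The numbers mark mice, not pairs, and the block changed no adjusted call.

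Genes named because the needled groups did not overlap cannot change sign when 1 needled mouse is left out. Filter, variance model, block and a left-out control or MPTP mouse do not alter the difference itself. Of 179 named genes, 172 kept their direction under every alternative, a count that was therefore largely fixed in advance. The others were small or variable: with the 6 arrays Aif1 was -0.15, Bdnf -0.10 and Gfap -0.42; with quantile normalization Cab39l was -0.022, Fos 0.03 and Tcf7l2 -0.019; with cyclic loess Cab39l was -0.012, Fos 0.004 and Tcf7l2 -0.011. Leaving out 1 mouse moved Aif1 from -0.15 to 0.35, Bdnf from -0.10 to 0.39, Cab39l from -0.67 to 0.67, Fos from -0.33 to 0.33, Gfap from -0.42 to 0.62, Pmch from -2.88 to 0.10 and Tcf7l2 from -0.34 to 0.37. The cause was not tested. List medians moved by less than their spread in 495 of the comparisons run and by more in 79. The count of 495 was partly fixed in advance. The replicate block, the needled arrays alone and a left-out control or MPTP mouse cannot change a median. That count also includes changes of sign with the 6 arrays, as for complex I (0.265 to -0.044) and ribosomal genes (0.2 to -0.101). With 2 mice a group, signal over background sets what dim genes such as the ciliary ones can show.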

Other observations

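Some groups of genes belong to none of the tissue comparisons. Interferon response genes had a median difference of -0.04 over 11 tested genes, cytokines and chemokines 0.05 over 11 (9 more fell under the filter), endothelial genes -0.03 over 18 and pericyte and smooth muscle genes 0.04 over 11. The circadian clock list had a median of -0.03 over 17 genes, apoptosis genes -0.04 over 13 and genes of familial Parkinson disease -0.05 over 12. Synaptic vesicle proteins stood at 0.02 over 15 genes, and MAP kinase feedback genes at 0.07 over 15. Over all tested genes the median was 0.01.

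Striatal medium spiny neuron genes differed more between mice than between groups: the mean of 14 genes, set to 0 over the 8 arrays, was -0.50 and 0.22 in acupoint mice, -0.14 and -0.15 in non-acupoint mice and 0.89 and -0.41 in MPTP mice. Of the probe sets past the limma threshold with the 6 arrays, 4 carry several gene symbols each and are not named here. All 4 were lower in acupoint mice, with non-acupoint mouse 2 at 9.26 to 10.31 against 6.59 to 7.76 on the other 7 arrays.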
